A study of Mus musculus with 9 samples.

Results

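The 38 genes described here are genes that mark T cells and natural killer (NK) cells or carry their function. They were chosen by symbol from a table of 27179 genes, and each of the 38 matched 1 row. T cells recognise antigen through the T cell receptor, whose signal passes through the CD3 chains to the kinases LCK and ZAP70 and the adaptor LAT. CD8 T cells and NK cells kill target cells with granules of perforin and granzymes, and both make interferon-gamma. The liver holds many resident NK and CD8 T cells, and in aged mice CD8 T cells that express Gzmk and Pdcd1 build up in several tissues.

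The study compared livers of C57BL/6J mice, genotype WT, on normal chow. At 17 months of age all animals received, retro-orbitally, an AAV8 vector in which the hepatocyte promoter TBG drives the nuclease saCas9. The control group (sgRosa26, n = 4) received a U6-driven guide against Rosa26, a locus commonly cut as a neutral control, and the other group (sgCcnd1, n = 5) a guide against Ccnd1, which encodes the cell cycle driver cyclin D1. Poly(A) RNA of the liver m-lobe was sequenced in bulk 3 weeks later. Both groups thus carried the vector and the nuclease, and the promoter used is not one active in T or NK cells. The labels give no sex or batch. The sgRosa26 libraries are called A, B, C and D here, and the sgCcnd1 libraries E, F, G, H and I, letters given in column order. Each column names 1 animal, so the spread is that between animals.

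Depth was 10840595 (I) to 20176201 (E) gene-assigned reads per library. The targeted gene Ccnd1 was at 744 ± 110 normalized counts in sgRosa26 (SD, n = 4) and 362 ± 40.6 in sgCcnd1 (SD, n = 5), with a limma adjusted p of 0.0116, and 5 of 5 sgCcnd1 libraries lay below all controls. Leaving out B, D, F, H or I in turn raised that adjusted p above 0.05, to at most 0.0852 (limma). Within its group Ccnd1 was highest in E, at 428 normalized counts. Library H had 2.00 normalized counts of the Y-linked gene Ddx3y, against 810 to 1154 in the other libraries. Of Kdm5d and Uty, also Y-linked, H had 0, against 248 to 374 and 146 to 239. By these genes H reads as a female animal and the other libraries as males. The part of sex in the values of H was not tested. The hepatocyte list of 10 genes summed to 98.5% of the control mean in sgCcnd1, the Kupffer cell list of 9 to 98.7% and the sinusoidal endothelial list of 9 to 97.8%. Most of the hepatocyte sum was Alb, at 97.9%. The other hepatocyte genes went both ways, from Apoa1 at 87% to Cps1 at 125%, and 5 of the 10 had a log2 fold change below 0. Lower sums were found for neutrophils (64.2%), monocytes and macrophages (71.5%) and stellate cells and fibroblasts (81.9%). The cholangiocyte sum, most of it Spp1, was at 77.7% (91.4% without B), while Krt19 and Epcam were at 97.8% and 99.4%.

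T and NK cell genes were scarce in these livers. Over the 9 libraries the 38 genes had 9 to 904 reads each, and 19 of them reached a mean of 10 normalized counts (reads divided by the size factor of the library), the minimum for testing. Of those 19, 11 reached 10 in both groups and 8 in sgRosa26 alone, so that for these 8 the filter was passed through the higher group, and the counts over tested genes below are descriptions. In 36 of the 38 genes the mean was lower in sgCcnd1 than in sgRosa26. Over all genes tested, the log2 fold change was below 0 in 47.1%. The median gene of the 38 was at 55.3% of its control mean. Summed over the 38 genes, the level was 435, 938, 781 and 512 normalized counts in A to D and 609, 355, 376, 267 and 338 in E to I. Libraries F to I lay below the lowest control, and E lay inside the control range. The mean sum in sgCcnd1 was 58.4% of that in sgRosa26, 50.1% without E, 63% without H and 67.5% without B. In bulk RNA, fewer T or NK cells and less RNA per cell cannot be told apart.

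No T or NK cell gene passed the test across the whole table. In limma, 0 of the 19 tested genes were lower and 0 higher at an adjusted p under 0.05. Over all 12993 genes tested, 0.0077% were called lower, which is Ccnd1, and 0% higher. The smallest adjusted p among the 19 was 0.294, for Il2rb. At an unadjusted p under 0.05, 9 of the 19 were lower and 0 higher, where 5.74% of all genes tested were lower and 5.22% higher. With no filter on low values, 14 of the 38 were lower at an unadjusted p under 0.05, against a background of 5.34%. Rescaling the libraries to a common 75th percentile left the count at 9 while the background moved to 7.33% lower and 3.57% higher. The median log2 fold change of the 19 genes was -0.95, and that of all genes tested was 0.01. The log2 fold change was below 0 in 19 of the 19, against 47.1% of all genes tested. In 8 of the 19, at least 4 of the 5 sgCcnd1 libraries lay below all controls, against 6.56% of all genes tested. The 9 genes at an unadjusted p under 0.05 were Il2rb, Ctsw, Cd3e, Lat, Klrk1, Cd4, Cd8a, Cd3g and Nkg7.

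The count of genes at an unadjusted p under 0.05 depended on single libraries. Without B it was 4 of 18 genes tested, with a background of 4.09%, and without C it was 5 of 17 (5.38%). Without H, 6 of 19 passed (4.28%). Without A, 14 of 19 passed (5.72%), and without E, 15 of 18 (7.1%). Leaving out D, F, G or I gave 11 of 18, 7 of 19, 8 of 19 and 8 of 19, with backgrounds of 6.41%, 5.41%, 5.15% and 5.11%. The edgeR model on recovered reads gave 7 of 19 (background 6.15%) and DESeq2 8 of 19 (5.49%). Both were also run without H, where each gave 7 of 19 (4.55% for edgeR and 3.88% for DESeq2), and edgeR without E gave 15 of 18 (7.76%). With a minimum mean of 30, limma tested 2 of the 38 genes and 1 was lower (5.15%). At an adjusted p under 0.05 edgeR called 0 of 19 lower (0.0077% of all genes), and DESeq2 called 0 of the 7 genes for which it gave an adjusted p (0.585% of all genes lower).

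**Figure D1:**
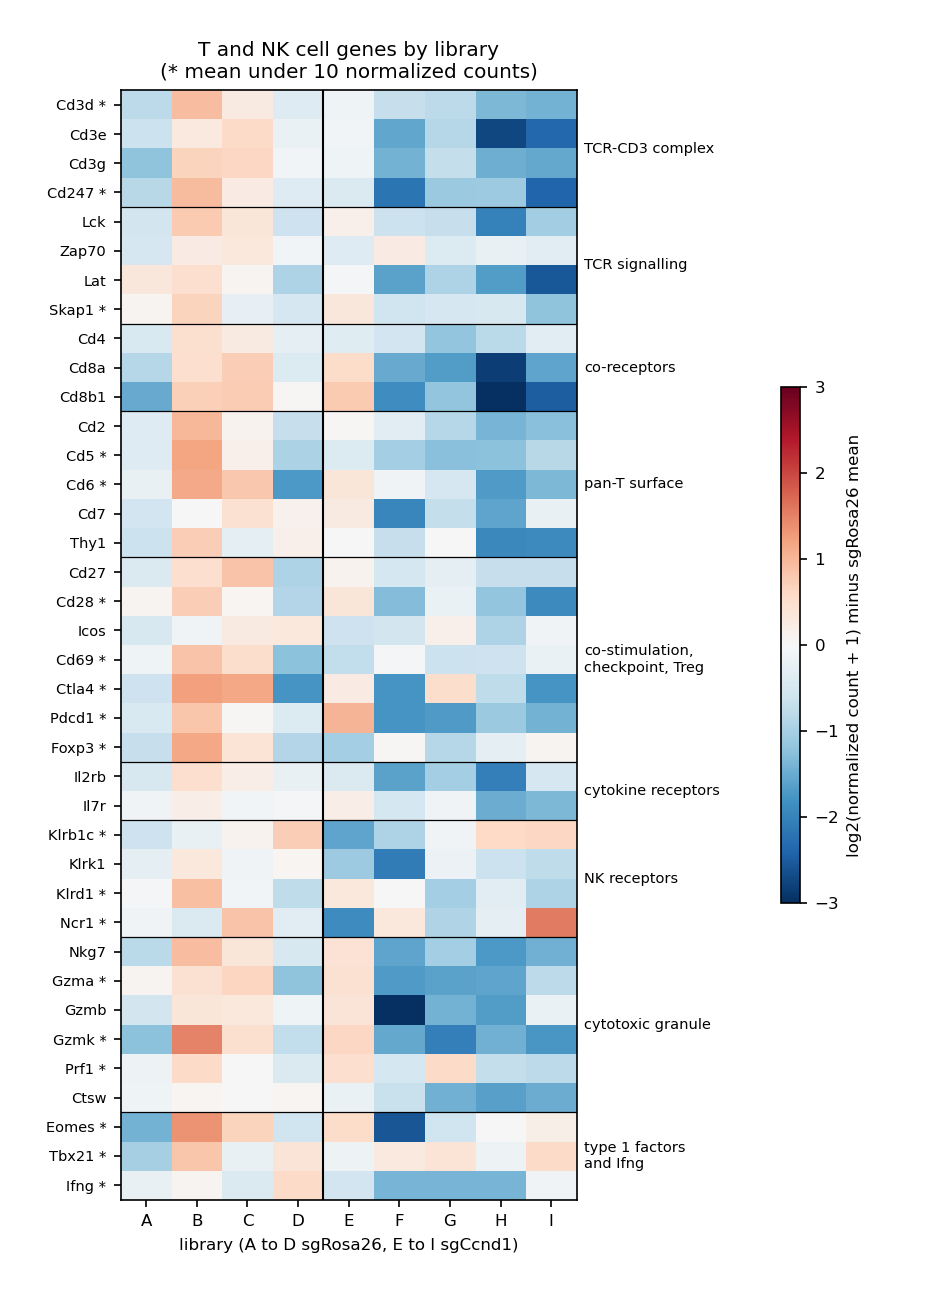
Heat map of the 38 genes (rows, grouped by role) in the 9 libraries (columns), as log2(normalized count + 1) minus the sgRosa26 mean, on a scale from blue (lower) to red (higher); asterisks mark the 19 genes with a mean under 10. Libraries F to I are mostly blue, library E resembles the controls in the CD8 and granule rows, and library B is the reddest control.

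The 4 CD3 chains, which carry the signal of the T cell receptor into the cell, were all at lower means in sgCcnd1. Their summed level was 34.4, 103, 92.9 and 55.4 normalized counts in A to D and 57.9, 21.5, 34.3, 17.0 and 14.2 in E to I. The sum was lower than the lowest control in 4 of 5 sgCcnd1 libraries, and the group mean was 40.5% of control (30.4% without E, 44.7% without H and 47.6% without B). Cd3g, Cd3d and Cd3e are neighbours on mouse chromosome 9 (GRCm38, GENCODE): Cd3g at chr9:44969572-44980431 and Cd3e at chr9:44998740-45009627 on the minus strand, and Cd3d at chr9:44981786-44987339 on the plus strand between them.

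Cd3e (Entrez 12501) was at 16, 31.6, 38.5 and 22.3 normalized counts in A to D and at 24.4, 8.06, 13.7, 3.00 and 4.26 in E to I. The 4 libraries F to I were all below the lowest control, and E was above controls A and D. The mean was 27.1 ± 9.93 in sgRosa26 (SD, n = 4) and 10.7 ± 8.72 in sgCcnd1 (SD, n = 5), a difference of -1.52 (SE 0.49) on the log2 scale (limma adjusted p = 0.321). Cd3e shares 135 exon bases with the antisense gene Gm48719. Its unadjusted p stayed under 0.05 in 9 of 9 fits that each left out a library. Cd3g (Entrez 12502) was at 7.38, 29.8, 29.1 and 17.5 normalized counts in A to D and at 16.8, 6.27, 10.8, 6.00 and 5.68 in E to I. Control A overlapped with the sgCcnd1 libraries. Cd3g differed by -1.06 (SE 0.43) on the log2 scale (limma adjusted p = 0.398), and the unadjusted p was under 0.05 in 4 of 9 such fits, not without B, C, F, H or I. Cd3d and Cd247, the gene of the CD3 zeta chain, were under the minimum for testing, with 71 and 80 reads in all 9 libraries. Cd3d was at 47.3% and Cd247 at 32.7% of the control mean. Cd247 shares 3007 exon bases with Pou2f1 on the other strand, and whether the counting used strand is not given in the sources used here.

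Of the kinases and adaptors downstream of CD3, Lat, Lck and Zap70 were tested. Lat (Entrez 16797), the adaptor that ZAP70 phosphorylates, was at 27.1, 30.7, 22.5 and 10.7 normalized counts in A to D and at 20.6, 6.27, 10.8, 6.00 and 2.84 in E to I. On the log2 scale the difference was -1.35 (SE 0.47; limma adjusted p = 0.335), and the unadjusted p was under 0.05 in 9 of 9 such fits. Lck, the kinase bound to the CD4 and CD8 co-receptors, differed by -0.85 on the log2 scale (limma adjusted p = 0.483), and 4 of 5 sgCcnd1 libraries were below all controls. Skap1, an adaptor of T cell adhesion, had 38 reads in all and was not tested.

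Zap70 (Entrez 22637), the kinase that binds phosphorylated CD3 chains, had the most reads of the 38 genes. It was at 72.5, 124, 130 and 98.1 normalized counts in A to D and at 78.5, 123, 77.3, 88.0 and 82.3 in E to I. The groups overlapped throughout, with 0 of 5 sgCcnd1 libraries below all controls. The log2 fold change was -0.22 with a 95% interval from -0.63 to 0.19 (limma adjusted p = 0.686), which overlaps those of Lat and Lck. Per kilobase of exon, Zap70 was at 35.4 normalized counts in sgRosa26 against 6.64 for Cd3e, 10.2 for Lck and 8.22 for Lat. The granule gene Nkg7 was at 35.6 on this scale and Cd7, the next below Zap70, at 15.4. No annotated gene shares exon bases with Zap70.

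The promoter sequence of the genes that had an unadjusted p under 0.05 is shown to compare the genes with the smallest p. Of the 9 such genes, 6 had an entry in the RefSeq promoter table (GRCm38.p6). The 250 bases before the RefSeq start are printed 5′ to 3′ on the strand of the gene. The windows are chr9:45009612-45009861 (minus) for Cd3e, chr9:44980432-44980681 (minus) for Cd3g, chr7:126369569-126369818 (minus) for Lat, chr6:71373177-71373426 (plus) for Cd8a, chr6:129623865-129624114 (minus) for Klrk1 and chr7:43436888-43437137 (plus) for Nkg7. Capitals mark matches on either strand to 3 letter strings: TGTGGT, a core bound by RUNX factors, AGGAAG, a core bound by ETS factors, and AGGTGTGA, bound by T-box factors such as T-bet and eomesodermin.
Cd3e: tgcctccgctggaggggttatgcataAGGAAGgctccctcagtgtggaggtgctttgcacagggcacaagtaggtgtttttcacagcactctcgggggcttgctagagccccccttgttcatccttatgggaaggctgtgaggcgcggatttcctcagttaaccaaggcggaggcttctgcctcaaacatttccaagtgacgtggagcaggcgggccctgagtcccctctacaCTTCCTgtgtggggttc
Cd3g: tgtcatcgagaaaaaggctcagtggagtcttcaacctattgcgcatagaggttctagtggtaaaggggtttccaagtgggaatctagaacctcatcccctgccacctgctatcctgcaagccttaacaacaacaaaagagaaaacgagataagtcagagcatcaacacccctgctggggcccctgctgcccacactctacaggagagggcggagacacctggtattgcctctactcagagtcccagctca
Lat: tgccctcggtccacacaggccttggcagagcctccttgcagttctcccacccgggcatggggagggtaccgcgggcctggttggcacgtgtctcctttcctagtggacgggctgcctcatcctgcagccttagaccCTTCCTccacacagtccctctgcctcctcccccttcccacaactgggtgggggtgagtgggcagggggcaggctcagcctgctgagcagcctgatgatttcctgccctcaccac
Cd8a: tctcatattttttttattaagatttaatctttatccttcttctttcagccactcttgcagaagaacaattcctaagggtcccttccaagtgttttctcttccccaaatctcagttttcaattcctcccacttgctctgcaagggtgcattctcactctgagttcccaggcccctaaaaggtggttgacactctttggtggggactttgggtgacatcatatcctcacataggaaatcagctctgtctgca
Klrk1: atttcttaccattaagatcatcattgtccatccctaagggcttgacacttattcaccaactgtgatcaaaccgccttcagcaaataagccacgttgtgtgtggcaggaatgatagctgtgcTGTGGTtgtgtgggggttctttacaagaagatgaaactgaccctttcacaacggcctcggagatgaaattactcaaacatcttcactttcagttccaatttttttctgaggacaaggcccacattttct
Nkg7: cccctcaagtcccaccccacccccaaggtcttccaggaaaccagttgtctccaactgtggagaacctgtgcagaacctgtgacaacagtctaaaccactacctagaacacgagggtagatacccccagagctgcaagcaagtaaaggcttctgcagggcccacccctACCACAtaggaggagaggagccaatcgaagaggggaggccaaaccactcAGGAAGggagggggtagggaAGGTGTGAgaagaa
Cd3e held 2 ETS strings, at -224 and -17 from the start, and Lat held 1 at -114. Klrk1 held 1 RUNX string at -129. Nkg7 held 1 of each, the RUNX string at -83, the ETS string at -34 and the T-box string at -14. Cd8a and Cd3g held 0 of the 3 in this window. GENCODE places some starts differently, so that its gene reaches into the window for Nkg7 (from chr7:43437073), Cd3e (to chr9:45009627) and Lat (to chr7:126369570). The ETS and T-box strings of Nkg7 lie inside the GENCODE gene, and the -17 string of Cd3e overlaps it. Over the 30 windows of the 25 members in the table, 33.3% held the RUNX string, 56.7% the ETS string and 3.33% the T-box string. Over all 32851 windows of that length the shares were 14%, 29.5% and 1.12%. A match is a string of letters and shows no binding.

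Among the co-receptors, the CD8 genes split the sgCcnd1 group and Cd4 did not. Cd8a (Entrez 12525), on chromosome 6 at chr6:71373427-71379173, was at 14.8, 39.4, 46.0 and 20.4 normalized counts in A to D and at 40.4, 8.95, 7.83, 3.00 and 8.52 in E to I. Libraries F to I were below all controls, while E was above 3 of the 4 controls. On the log2 scale the difference was -1.41 (SE 0.56; limma adjusted p = 0.388). With edgeR the difference was -1.06 over all libraries, -2.12 without E and -0.81 without H. Cd8b1 (Entrez 12526), the beta chain that marks conventional CD8 T cells, lies next to it at chr6:71322788-71337494. It was at 3.69, 21.0, 21.6 and 12.6 normalized counts in A to D and at 22.1, 2.69, 4.90, 0 and 1.42 in E to I. The 0 in H allows up to 3.00 normalized counts, the value of 3 reads there. Cd8b1 was higher in E than in every control, and its log2 fold change was -1.69 with a 95% interval from -3.39 to 0.01 (limma adjusted p = 0.455). It depended on the pseudocount, at -2.50 with 0.1 and -0.67 with 10, and was -1.11 with edgeR. Cd4 (Entrez 12504), which marks helper T cells and is also found on some dendritic cells, was at 23.4, 45.6, 39.4 and 26.2 normalized counts in A to D and at 25.2, 21.5, 13.7, 18 and 25.5 in E to I. Here E did not stand apart, and the log2 difference was -0.65 (SE 0.26; limma adjusted p = 0.382). The unadjusted p of Cd4 and of Cd8a was under 0.05 in 6 of 9 fits that each left out a library, for Cd4 not without B, C or G and for Cd8a not without B, C or H.

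**Figure D2:**
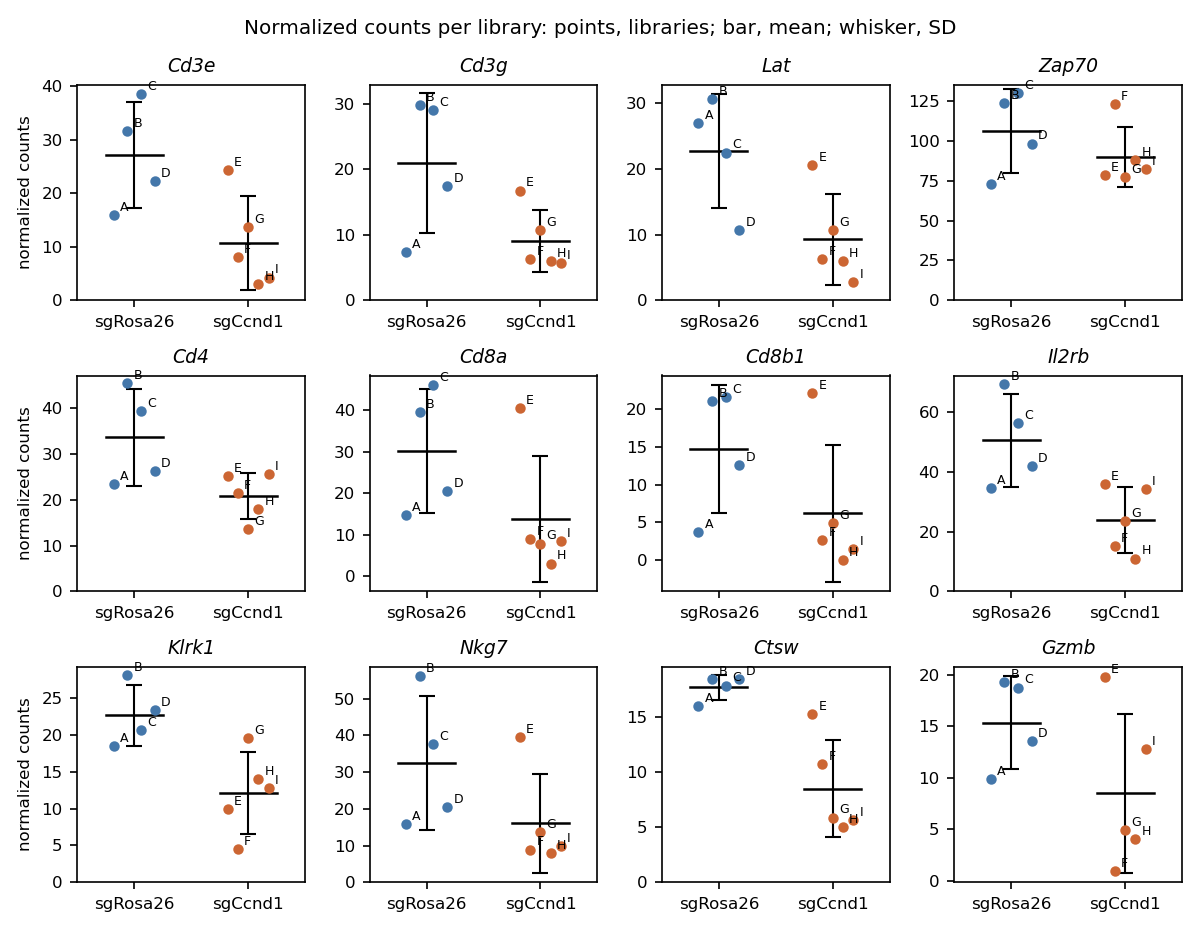
Normalized counts (y axis, linear) of 12 genes in the 4 sgRosa26 (blue) and 5 sgCcnd1 (orange) libraries; points are libraries with their letters, horizontal bars are means and whiskers SD. Library E lies within the control range for Cd8a and Nkg7 and above it for Cd8b1 and Gzmb, while for Ctsw all 5 sgCcnd1 libraries lie below the lowest control.

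The other surface molecules of T cells had lower means with overlapping groups. Thy1, also present on fibroblasts, differed by -0.91 on the log2 scale (limma adjusted p = 0.487), Cd7 by -0.84 (adjusted p = 0.504) and Cd2, an adhesion receptor, by -0.76 (adjusted p = 0.516). In each of these 3 genes, 3 of 5 sgCcnd1 libraries lay below all controls. Cd5 and Cd6, receptors that dampen T cell receptor signals, were not tested, with 63 and 82 reads in all. Cd5 was at 6.15, 20.2, 9.39 and 3.88 normalized counts in A to D and at 6.10, 3.58, 2.94, 3.00 and 4.26 in E to I. Library B was more than 2 times any other control.

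Genes of co-stimulation, checkpoints and regulatory T cells had few reads, from 23 for Foxp3 to 105 for Cd27 in all 9 libraries. Icos (log2 fold change -0.42, limma adjusted p = 0.642) and Cd27 (-0.41, limma adjusted p = 0.71), both co-stimulatory receptors, were the 2 tested. Pdcd1, the gene of the PD-1 checkpoint receptor, was at 3.69, 10.5, 5.63 and 3.88 normalized counts in A to D and at 12.2, 0.895, 0.979, 2.00 and 1.42 in E to I. Library E was the highest of all 9, and F to I were below all controls. Pdcd1 rested on 25 reads in sgRosa26 and 21 in sgCcnd1. Foxp3, the factor that defines regulatory T cells, and the checkpoint gene Ctla4 had 23 and 25 reads in all 9 libraries, and no difference was detectable at this depth. Cd28 and Cd69, a co-stimulatory receptor and an early activation marker, were at 56.4% and 61.9% of the control mean with 64 and 70 reads.

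The cytokine receptors were Il2rb, the beta chain shared by the receptors of interleukin 2 and 15, and Il7r, the receptor of interleukin 7. Il2rb (Entrez 16185) was at 34.4, 69.2, 56.3 and 41.8 normalized counts in A to D and at 35.8, 15.2, 23.5, 11 and 34.1 in E to I. Libraries F to I were below all controls, though I only just, and E was above control A. The mean was 50.4 ± 15.5 in sgRosa26 (SD, n = 4) and 23.9 ± 11 in sgCcnd1 (SD, n = 5). On the log2 scale the difference was -1.12 (SE 0.34), with the smallest p of the 19 tested genes (limma adjusted p = 0.294). DESeq2 gave it an adjusted p of 0.0848 and edgeR one of 0.278. Il7r differed by -0.65 on the log2 scale (limma adjusted p = 0.526), with H and I at 5.0 and 5.68 normalized counts and the other 7 libraries at 10.7 to 18.4.

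Among the NK receptors, Klrk1 alone reached the minimum for testing. Klrk1 (Entrez 27007), which encodes the activating receptor NKG2D of NK and CD8 T cells, was at 18.4, 28, 20.6 and 23.3 normalized counts in A to D and at 9.91, 4.48, 19.6, 14 and 12.8 in E to I. Library E was below all controls here, unlike in the CD8 genes, and G overlapped with control A. On the log2 scale the difference was -0.95 (SE 0.35; limma adjusted p = 0.351). Klrb1c and Ncr1, the receptors most specific for NK cells and related innate cells, had sgCcnd1 means at 89.3% and 112% of control and were not tested. The Ncr1 mean rested on library I, without which it was at 55.7% of control, and with no filter its log2 fold change was -0.24. Klrb1c, the gene of NK1.1, was at 2.46, 3.51, 4.69 and 7.77 normalized counts in A to D and at 0.762, 1.79, 3.92, 7.0 and 7.10 in E to I. Ncr1, the gene of NKp46, was at 2.46, 1.75, 5.63 and 1.94 normalized counts in A to D and at 0, 3.58, 0.979, 2.00 and 9.93 in E to I. Klrb1c shares 413 exon bases with Gm44511. These 2 genes had 38 and 26 reads in all, with the lowest value of each in E and the highest Ncr1 value in I. Klrd1, which pairs with NKG2 receptors, was at 72.1% of the control mean with 80 reads. The 4 NK receptor genes summed to 66.6% of control, against 40.5% for the CD3 chains. The 2 values were 69.5% and 30.4% without E, 64.6% and 44.7% without H, and 73.2% and 47.6% without B. In each of the 2 sums, 4 of 5 sgCcnd1 libraries lay below all controls, E to H for the NK receptors and F to I for the CD3 chains. The difference between these lists was not tested.

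Granule genes were led by Nkg7 and Ctsw. Nkg7 (Entrez 72310), a granule membrane protein of NK and cytotoxic T cells, was at 16, 56.1, 37.5 and 20.4 normalized counts in A to D and at 39.6, 8.95, 13.7, 8.0 and 9.93 in E to I. F to I were below all controls and E was above 3 of the 4 controls. On the log2 scale the difference was -1.07 (SE 0.46; limma adjusted p = 0.427), and the unadjusted p was under 0.05 in 3 of 9 fits that each left out a library, those without A, D or E. With edgeR the difference of Nkg7 was -0.98 over all libraries and -1.71 without E. Ctsw (Entrez 13041), a protease found in cytotoxic lymphocytes, was at 16, 18.4, 17.8 and 18.5 normalized counts in A to D and at 15.2, 10.7, 5.87, 5.0 and 5.68 in E to I. Its exons share 9 bases with Fibp. It was the 1 gene of the 38 in which all 5 sgCcnd1 libraries were below all controls, a pattern found in 1.97% of all genes tested. On the log2 scale the difference was -1.08 (SE 0.33; limma adjusted p = 0.296), and the unadjusted p was under 0.05 in 9 of 9 such fits.

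The granzymes, serine proteases that trigger death of the target cell, were low, with library E the highest of its group in each. Gzmb was at 9.84, 19.3, 18.8 and 13.6 normalized counts in A to D and at 19.8, 0.895, 4.90, 4.0 and 12.8 in E to I (log2 fold change -1.19, limma adjusted p = 0.483). Gzmk was at 2.46, 21.9, 10.3 and 3.88 normalized counts in A to D and at 11.4, 1.79, 0.979, 2.00 and 1.42 in E to I. Gzma was at 8.61, 11.4, 13.1 and 2.91 normalized counts in A to D and at 11.4, 1.79, 1.96, 2.00 and 4.26 in E to I. For Gzmk, F to I were below all controls, while Gzma and Gzmb each overlapped further. Gzma and Gzmk had 61 and 63 reads in all and were not tested. Prf1, the gene of perforin, was at 91.8% of its control mean with 53 reads, the granule gene nearest to the control level. The 6 granule genes summed to 51.3% of control, to 34.7% without E, 57.5% without H and 61.8% without B.

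The transcription factors of type 1 lymphocytes and their cytokine rested on few reads. Eomes, Tbx21 (the gene of T-bet) and Ifng had 51, 38 and 9 reads in all 9 libraries. Tbx21 was at 3.98 ± 2.51 normalized counts in sgRosa26 (SD, n = 4) and 4.22 ± 1.17 in sgCcnd1 (SD, n = 5), and with Ncr1, whose mean rested on library I, it was 1 of the 2 genes whose mean was higher in sgCcnd1. Ifng was found with 7 reads in sgRosa26 and 2 in sgCcnd1.

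**Figure D3:**
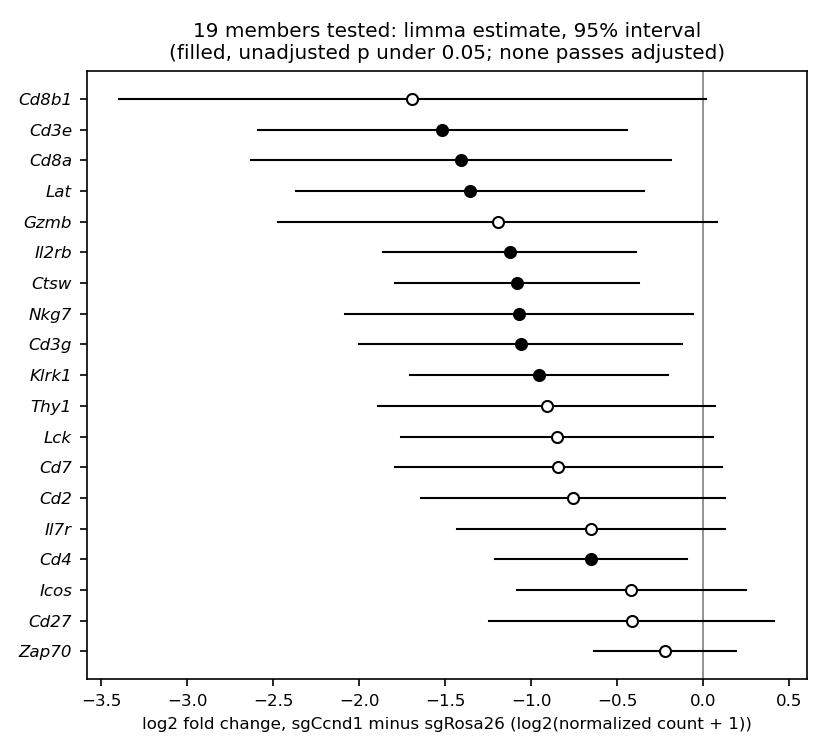
Limma log2 fold change of the 19 tested genes (x axis, sgCcnd1 minus sgRosa26) with 95% intervals; filled points have an unadjusted p under 0.05. All 19 estimates lie left of 0, from -1.69 for Cd8b1 to -0.22 for Zap70.

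The spread between animals was larger than counting error in both groups. The coefficient of variation (CV, SD over mean) was above the one expected from counting reads alone in 31 of the 38 genes in sgRosa26 and in 31 in sgCcnd1. Its median over the 38 genes was 50.4% in sgRosa26, where counting alone gives 27.4%, and 58.9% in sgCcnd1, where counting alone gives 36.6%. In sgCcnd1 the CV was highest for Ifng, at 147%, where counting alone gives 165%. It was 146% for Cd8b1, 140% for Pdcd1, 126% for Gzmk, 119% for Ncr1, 113% for Ctla4 and 110% for Cd8a, each above its counting value. In sgRosa26 it was 6.55% for Ctsw and 10.6% for Il7r, below the 23.8% and 25% that counting alone gives.

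Single libraries stood out in many genes. Library B was the highest of the 4 controls in 26 of the 38 genes, and library A the lowest in 22. Library E was the highest of its group in 25 genes and lay inside the control range in 28. The number inside the control range was 11 for F, 17 for G, 12 for H and 16 for I. The share over all genes was not computed for the counts of this paragraph, so they are descriptions only. The median gene stood at 63.8%, 147%, 114% and 66.2% of the control mean in A to D and at 91.2%, 37.5%, 47.3%, 30.2% and 42.8% in E to I. The labels give no feature that separates E from the rest of its group.

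**Figure D4:**
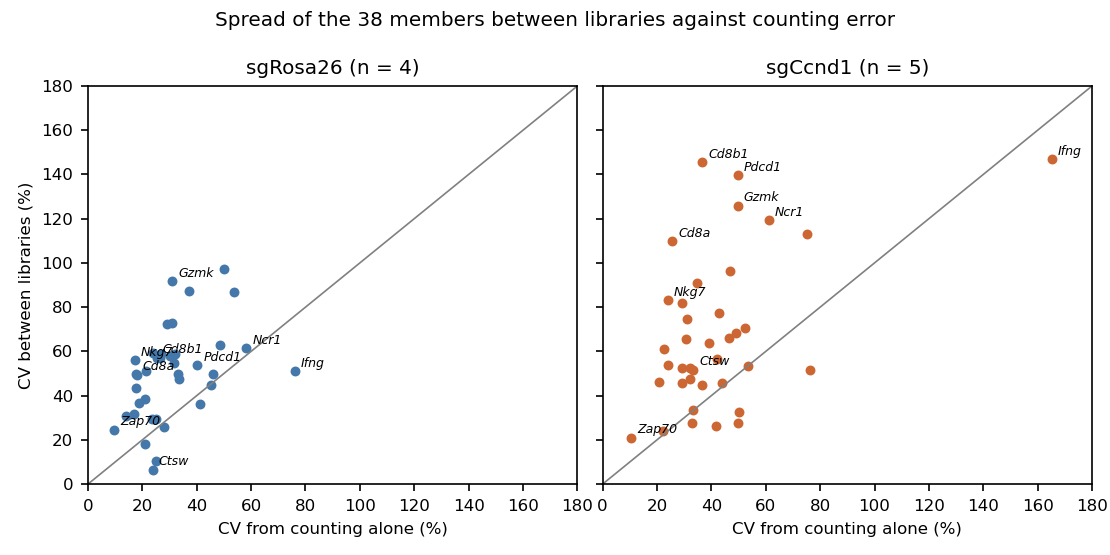
CV between libraries (y axis, %) against the CV that counting reads alone gives (x axis, %) for the 38 genes in sgRosa26 (left, n = 4) and sgCcnd1 (right, n = 5); the line marks equality. Most points lie above the line, and in sgCcnd1 Cd8b1, Pdcd1, Gzmk and Cd8a lie farthest above it.

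Other cells of the lobe were measured in the same libraries. Ptprc, the gene of the pan-leukocyte marker CD45, was at 204 ± 19.7 normalized counts in sgRosa26 (SD, n = 4) and 153 ± 30.4 in sgCcnd1 (SD, n = 5), a log2 difference of -0.43 (limma adjusted p = 0.338). Per 100 normalized counts of Ptprc, the 4 CD3 chains summed to 15.8, 48.8, 43.8 and 31.7 in A to D and to 30.3, 20.2, 22.3, 11 and 8.77 in E to I. Controls and sgCcnd1 libraries overlapped in this ratio. Of the 15 pan-leukocyte genes, 10 were lower at an unadjusted p under 0.05 and 0 passed the adjustment. Over all genes tested 5.74% were lower by that rule, which also applies to the lists that follow. The pan-leukocyte sum ranged from 3422 to 4248 normalized counts in sgRosa26 (mean 3769) and from 3147 to 3653 in sgCcnd1 (mean 3322). Much of it was Lcp1, at a mean of 1640 in sgRosa26 and 1734 in sgCcnd1, 106% of control. The log2 fold change was above 0 in Lcp1 and below 0 in 14 of the 15 genes (median -0.44), against 47.1% of all genes tested. Of the 12 monocyte and macrophage genes, 11 were tested and 6 were lower at an unadjusted p under 0.05, with sums of 3262 to 3892 in sgRosa26 and 2329 to 2841 in sgCcnd1. Of the 9 Kupffer cell genes 0 were, with sums of 1934 to 2888 and 2024 to 2538. Of the 16 B and plasma cell genes, 13 were tested and 1 was, with sums of 1870 to 4242 in sgRosa26 and 1375 to 4127 in sgCcnd1. The highest B cell sums were in libraries B and E, which were also the highest of their groups for most T and NK genes. The 7 neutrophil genes summed to 125 to 210 normalized counts in sgRosa26 and 80.0 to 130.2 in sgCcnd1, with 4 of 5 sgCcnd1 libraries below all controls. Of the 8 stellate cell and fibroblast genes, 3 were lower at an unadjusted p under 0.05. No listed gene of these 6 lists was at 0 in all libraries. Their part in the differences of the T and NK genes was not tested.

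**Figure D5:**
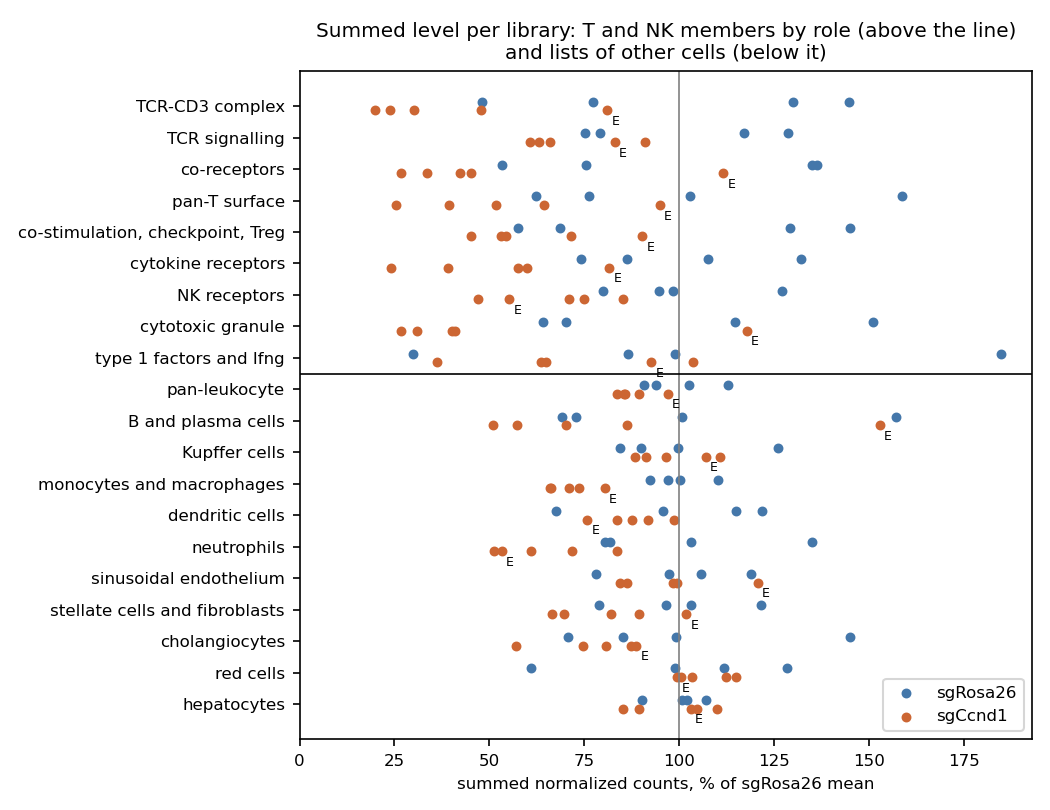
Summed normalized counts of each gene list per library, as % of the sgRosa26 mean (x axis, linear), for T and NK genes by role (above the line) and other cells (below it); blue points are sgRosa26 and orange points sgCcnd1 libraries, with E labelled. In the CD3, co-receptor, cytokine receptor, NK receptor and granule rows, 4 of 5 sgCcnd1 libraries lie below the lowest control. The same holds for the pan-leukocyte and neutrophil rows. The monocyte and macrophage row has 5 of 5, and the type 1 factor, Kupffer, dendritic, endothelial and red cell rows have 0.

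A list of 90 further T and NK genes, among them receptor constant regions, signalling proteins and homing receptors, was examined in the same way. Of these, 46 reached the minimum, 18 were lower and 1 (Txnip) higher at an unadjusted p under 0.05 (5.74% and 5.22% of all genes tested), and 0 passed the adjustment in either direction. The median log2 fold change of the 46 was -0.49. The highest estimate of the list was that of Zbtb16, listed as a factor of innate-like T cells, at 0.97 (limma adjusted p = 0.455). In it 4 of 5 sgCcnd1 libraries lay above all controls. Its mean was 172 normalized counts in sgRosa26 and 409 in sgCcnd1, above the 71.5 and 29.0 of the 4 CD3 chains summed. Which cells of the lobe its reads came from was not tested. The summed level of the 90 genes was 98% of control, with 1 of 5 sgCcnd1 libraries below all controls. Without B, C or F the number lower was 8 of 43, 10 of 43 and 11 of 47 (4.09%, 5.38% and 5.41% of all genes). Trbc1, a constant region of the T cell receptor beta chain, was at 12.3, 22.8, 18.8 and 12.6 normalized counts in A to D and at 9.91, 5.37, 3.92, 4.0 and 4.26 in E to I. All 5 sgCcnd1 libraries were below all controls, E included, and the log2 difference was -1.47 (SE 0.34; limma adjusted p = 0.245). Trbc1 lies beside the similar Trbc2, and reads could have been shared or split between the 2. Trbc2 differed by -0.53 on the log2 scale (SE 0.46; limma adjusted p = 0.689), with 1 of 5 sgCcnd1 libraries below all controls. The same absence of overlap held for Gimap3, a GTPase of lymphocytes, at -0.67, and Tcf7, a factor of naive and memory-like T cells, at -0.62 (limma adjusted p = 0.266 and 0.291). Runx3, a factor of CD8 T and NK cells, was at 28.3, 23.7, 21.6 and 13.6 normalized counts in A to D and at 13.7, 9.85, 11.7, 4.0 and 1.42 in E to I (log2 fold change -1.55, limma adjusted p = 0.311). Ccl5, a chemokine of cytotoxic lymphocytes, was at 51.6, 126, 90.1 and 43.7 normalized counts in A to D and at 83.1, 26.9, 20.6, 13 and 19.9 in E to I, so that E again lay among the controls. Its log2 fold change was -1.41 (limma adjusted p = 0.320). The kinase Prkcq, the phosphatase Ptpn22 and the cytokine receptor Il21r had log2 fold changes of -0.91, -0.80 and -1.0, each with 4 of 5 sgCcnd1 libraries below all controls (limma adjusted p = 0.282, 0.307 and 0.339).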

How the data were processed

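The deposited table holds, per its name, normalized counts: a never-negative expression signal per Entrez gene, 1 column per animal. The submitters' processing notes name Trim Galore 0.6.7, HISAT2 2.2.1, featureCounts 2.0.3 and DESeq2 2.11.40.8, and the builds mm10 and GRCm38, without role or order. In each library 100% of the signal values the authors deposited were whole multiples (within 0.01) of the value of 1 read, which gave back the read counts. In H that value is so near 1 that steps and rounding are hard to tell apart.

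Genes with a mean of at least 10 were tested by limma 3.58.1 (R 4.3.3, eBayes with trend, two-sided, no covariate) on log2(normalized count + 1), with Benjamini-Hochberg adjustment over all 12993 genes and a threshold of 0.05. Fold changes of low genes depend on the pseudocount: the median member was at -0.95, and at -1.02 with 0.1 and -0.59 with 10, against -0.86 in edgeR. Alternatives were other pseudocounts (0.1, 10), filters (none, 30) and scalings, robust eBayes, edgeR 4.0.16 and DESeq2 1.42.0 on recovered reads, and leaving out each library. With all libraries, DESeq2 left the adjusted p undefined for 12 of the 19 genes. The edgeR fits with no filter and without E were added after the data were seen. Intervals from reads cover counting error only.

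The members and lists were chosen with earlier results of these data known. All 38 members are accounted for. Of the further list the 8 tested genes with the smallest p were to be named, and Txnip, Trbc2 and Zbtb16 were named after their values were seen. Exon lengths and overlaps came from GENCODE M21. The procedures were tested on simulated counts. Figures were drawn with matplotlib 3.10.9.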

Additional observations from a re-analysis of the deposited data

Results flagged for a closer look

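A library far from the rest of its group was found in 9 of 120 groups of values examined, where chance gives about 6. Of the 9, 8 were library E as the highest of the sgCcnd1 group, and several of these values come from the same genes.

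Cd8a reached 40.4 normalized counts in E and lay between 3.00 and 8.95 in F to I, and Cd8b1 reached 22.1 against 0 to 4.90. The 3 co-receptors summed to 87.7 normalized counts in E and to at most 35.5 in the others. Nkg7 was at 39.6 normalized counts in E against 8.0 to 13.7, Gzma at 11.4 against 1.79 to 4.26, and Gzmk at 11.4 against 0.979 to 2.00. The 6 granule genes summed to 106 normalized counts in E and to at most 36.9 in the others. Pdcd1 was at 12.2 in E against 0.895 to 2.00. The remaining value was Zap70 in F, at 123 normalized counts against 77.3 to 88.0 in the others. E was the deepest library, at 20176201 reads, and the one with the most Ccnd1 in its group; the part of either in these values was not tested.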

How the results depend on the processing

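In the 23 alternatives 0 members were called at an adjusted p under 0.05 in either direction (limma, edgeR or DESeq2). With all libraries DESeq2 left the adjusted p undefined for 12 of the 19, so its 0 there covers 7. A member without an adjusted p cannot be called, which also limits DESeq2 without H. The log2 fold change of the 19 members with a mean of at least 10 was below 0 in each of their 414 fits. With no filter, Tbx21 was at 0.19. The number of members lower at an unadjusted p under 0.05, 9 of 19, was 14 of 38 with no filter and 1 of 2 with a minimum mean of 30 (a different set of genes is tested; 5.15% of all genes), 15 of 18 with edgeR without E (chosen after seeing the data; 7.76% of all genes), and 4 to 15 when 1 library was omitted. The median member ranged from -1.20 to -0.59 on the log2 scale. For the further T and NK genes, 18 of 46, the number lower was 6 of 24 with a minimum mean of 30, where the median was -0.20, 11 of 47 with edgeR (4.55% of all genes) and 10 of 47 with DESeq2 (3.88%), both without H, and 8 to 21 when 1 library was omitted. The log2 fold change of Ccnd1 was -1.02 with edgeR without H (edgeR adjusted p = 0.0559) -1.12 with edgeR without E, and -1.11 to -0.96 when limma omitted 1 library, 5 of which fits (without B, D, F, H or I) had a limma adjusted p above 0.05; fewer samples enter these fits. For the other differences the cause was not tested. No paired analysis was possible because table columns are headed by animal numbers, which match none of the replicate numbers in the labels. Depth limits the 19 members under a mean of 10 normalized counts most: Ifng rested on 9 reads, although it is among the 14 members lower at an unadjusted p under 0.05 with no filter.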

Other observations

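Genes downstream of interferon-gamma were measured with more reads than Ifng itself, though Socs1 had too few to be tested. A list of 14 genes of its receptor, signalling and targets summed to 7920, 9790, 7501 and 7559 normalized counts in A to D and to 7274, 5933, 6441, 5485 and 6863 in E to I. All 5 sgCcnd1 libraries lay below all controls, E included. Of the 13 genes tested, 7 were lower and 0 higher at an unadjusted p under 0.05 (5.74% and 5.22% of all genes tested), and 0 passed the adjustment (limma, smallest adjusted p = 0.135). The median log2 fold change was -0.57. Many of these genes also respond to type I interferon.

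Relative to the CD3 chains, the library-to-library order of the CD8 genes differed from that of Cd4. Cd8a and Cd8b1 together were at 53.6%, 58.5%, 72.7% and 59.6% of the summed CD3 chains in A to D and at 108%, 54.2%, 37.1%, 17.6% and 70.0% in E to I. Cd4 was at 67.9%, 44.1%, 42.4% and 47.4% in A to D and at 43.4%, 100%, 40.0%, 106% and 180% in E to I. In H and I the CD3 chains summed to 17.0 and 14.2 normalized counts, so these ratios rest on few reads.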
